A study of Mus musculus with 18 samples.

Results

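The effect of cytokines was examined at day 2 in aggregates of mouse cells lacking all 3 Tet genes. The comparison used 4 of the 18 libraries of the series, identified by their labels: 2 replicates of TET TKO aggregates grown with cytokines and 2 replicates grown without them. The comparison was chosen with earlier results of these data known. All cells descended from E14Tg2a, a male embryonic stem cell line. The TKO libraries came from a single clone, in which the open reading frames of Tet1, Tet2 and Tet3 had been excised one after another with Cas9 and guide pairs placed at the start and stop codons. Before aggregation every culture was held in 2i/LIF and then converted for 44 h to epiblast-like cells (EpiLCs) with Activin A and Fgf. EpiLCs were then moved into suspension in GK15 medium, which either lacked added cytokines or held BMP4, BMP8a, SCF, LIF and EGF. TKO aggregates were taken whole, without sorting. The other 14 libraries (TKO EpiLCs, TKO aggregates at day 6, wild-type EpiLCs, wild-type aggregates without cytokines, and day 6 wild-type cells grown with cytokines, which the study sorted for SSEA1 and CD61) were used to estimate the spread and for the values set beside this comparison.

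Aggregation of EpiLCs with these cytokines is the standard route to primordial germ cell-like cells (PGCLCs). BMP4 and BMP8a bind serine/threonine kinase receptors, which phosphorylate SMAD1 and SMAD5, and the Id genes are their best known targets. LIF binds LIFR and gp130 (Il6st) and activates STAT3, which induces its own inhibitor Socs3 and, in embryonic stem cells, Klf4. SCF acts through the receptor KIT, which supports survival of germ cells, and EGF acts through EGFR and the ERK pathway. TET enzymes oxidise 5-methylcytosine and so take part in DNA demethylation, including that of germline genes. The comparison asks which genes respond to the cytokines early in aggregates that have no TET enzyme.

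With cytokines, direct targets of LIF (Socs3, Klf4, Junb, Bcl3) and of BMP (Id1) rose, together with Igf2, the water channel Aqp3 and the surface protein Ly6a. Of these, Socs3, Junb, Aqp3 and Ly6a alone kept their calls whichever single library was left out. Among the BMP-SMAD targets tested, Id1 was the 1 gene that rose, and 4 fell. The germ cell specification genes Prdm1, Prdm14 and Tfap2c did not pass the test in either direction. Over 16582 genes, edgeR's quasi-likelihood test was used with Benjamini-Hochberg correction, and genes were called at 0.05. With a log2 fold change beyond 2 asked for as well, 26 genes (0.157%) were higher and 236 (1.42%) lower with cytokines. Without that limit 340 genes (2.05%) were higher and 409 (2.47%) lower, 749 (4.52%) together, and "rose" and "fell" are used below for these genes. With 1 of the 4 libraries left out, 9 to 17 genes were higher and 41 to 128 lower beyond the limit, and 8 to 14 of the 26 and 35 to 124 of the 236 were among them, the fewest of the lower genes without the first cytokine replicate. The tests used a spread shared over all 9 groups of 2 biological replicates, wild-type groups included, whereas both compared groups come from 1 clone. In whole aggregates, fewer cells of a type cannot be told apart from less RNA per cell. The 2 groups did not overlap in 60.9% of all tested genes, so the absence of overlap alone sets no gene apart.

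**Figure D1:**
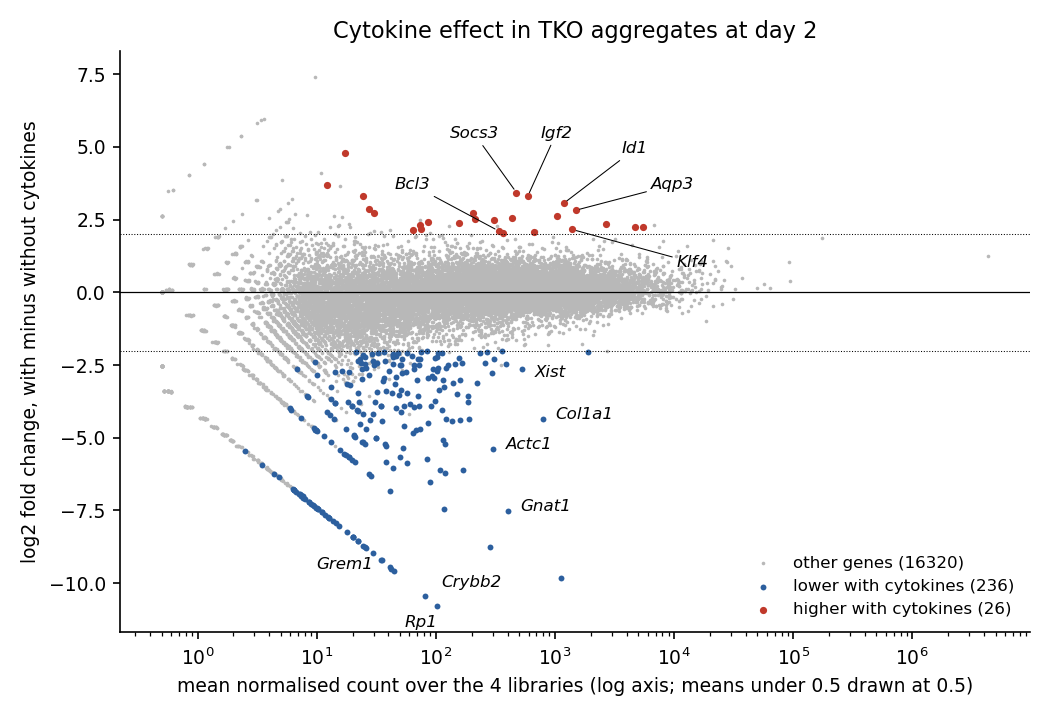
Each point is 1 of the 16582 tested genes, placed by its mean normalised count over the 4 day 2 TKO libraries (log axis, means under 0.5 drawn at 0.5) and by its log2 fold change with against without cytokines. The 26 genes higher beyond a log2 fold change of 2 (dotted lines) are red and the 236 lower are blue; Socs3, Igf2 and Id1 lie uppermost among the labelled genes, and Gnat1 and Rp1 lie far below.

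Total counts were 12872533 and 12100902 without cytokines and 16224333 and 15462086 with them, within the range of 11286050 to 41257861 over the series. Counts on Rn45s, the ribosomal RNA precursor, took 16.2% and 20.9% of the libraries without cytokines and 31.7% and 33.4% of those with them. More genes had at least 1 count without cytokines (19087 and 18725) than with them (17438 and 17837). Normalised counts below are counts divided by the library's size factor. A count of 0 allows up to 3 counts, which equals a normalised count of 3.11 to 3.72 in these libraries.

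The 4 TKO libraries made without cytokines, at days 2 and 6, stood apart from the other 14 in ways that touch the genes that fell. Transcripts of mature rod photoreceptors summed to 6001 and 10120 normalised counts in the day 2 libraries without cytokines, against 675 and 631 with them. Over the series that sum was 6001 to 10760 in the 4 cytokine-free TKO libraries and 630.5 to 2250 in the other 14, wild-type aggregates without cytokines included. The lens list likewise summed to 447.3 to 901.1 in these 4 libraries and to 53.49 to 176.4 in the others. Hprt, which is defective in E14Tg2a, had 44.6 and 62.5 normalised counts at day 2 without cytokines and 1.13 and 3.72 with them, and lay between 1.13 and 11.7 in all 14 other libraries. Xist, the non-coding RNA of the inactive X chromosome, had 846 and 982 normalised counts without cytokines and 193 and 98.1 with them. The list of Xist and Y-linked genes summed to 1937 to 2526 in the 4 cytokine-free TKO libraries and to 1199 to 2805 in the other 14. That sum therefore did not set these 4 libraries apart. These lists and genes were chosen after their values were seen, and their part in the results was not tested. Across genes, log2 normalised counts of the 4 cytokine-free TKO libraries correlated with r = 0.967 to 0.983, over both days, whereas those with cytokines correlated with r = 0.937 to 0.974; genes are not independent replicates.

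**Figure D2:**
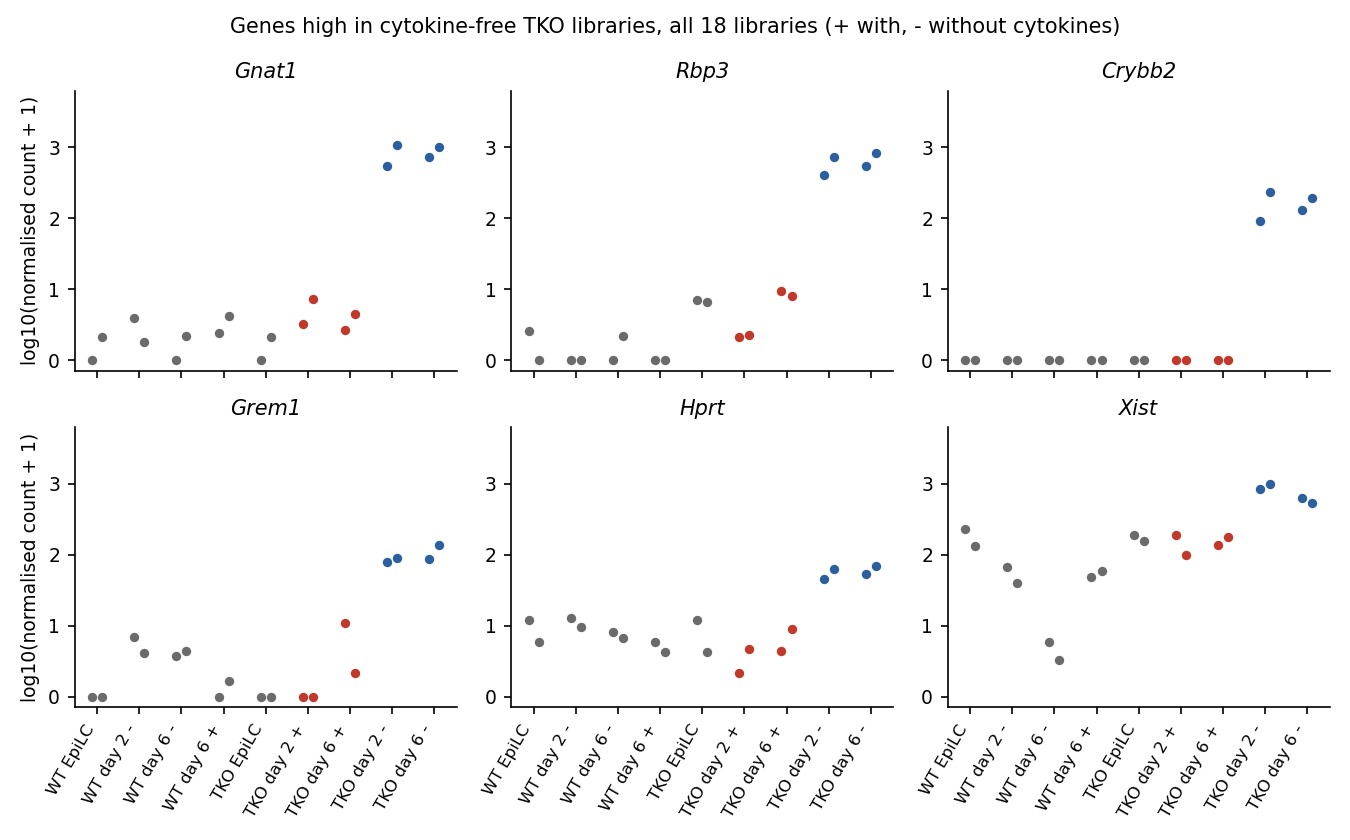
The points give log10(normalised count + 1) of the rod genes Gnat1 and Rbp3, the lens crystallin Crybb2, the BMP antagonist Grem1, Hprt and Xist in each of the 18 libraries, by group. The 4 TKO libraries without cytokines lie above the other 14 for Gnat1, from 539 to 1059 normalised counts against 0 to 6.21, and also for Hprt and Crybb2.

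The targeted genes were read first. Exonic reads were counted over whole genes, so reads from the untranslated regions that remain after excision also enter, and the counts do not check the deletion. Tet1 had 623 and 590 normalised counts with cytokines and 1937 and 1200 without them, with 737 and 967 in TKO EpiLCs and 6227 and 6036 in wild-type EpiLCs. The difference at day 2 was a log2 fold change of -1.36 (SE 0.32, adjusted p = 0.029, edgeR). Tet3 was lower as well, at 62.3 and 54.6 against 165 and 237.9 (log2 fold change -1.76, SE 0.34, adjusted p = 0.011, edgeR), whereas Tet2 was at 295.8 and 399.7 against 354.9 and 404.9 (log2 fold change -0.11, SE 0.44). Wild-type aggregates without cytokines at day 2 had 2028 and 1754 for Tet1, which overlapped the TKO libraries without cytokines, and 2558 and 1965 for Tet3. Both TKO libraries without cytokines are among those that hold rod, lens and Hprt transcripts. The Tet1 call was lost without any of the 4 libraries (adjusted p = 0.059 to 0.27, edgeR) and with offsets for transcript length (log2 fold change -0.74, adjusted p = 0.065). The Tet3 call was kept only without the first replicate grown without cytokines (adjusted p = 0.022, edgeR) and was otherwise lost (0.091 to 0.12).

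The receptors for the added cytokines were transcribed in all 4 libraries. Of 24 tested ligands and receptors, 1 rose (4.17%, against 2.05% of all genes) and none fell. The median log2 fold change was -0.09, against -0.03 over all genes. Lifr, the LIF receptor, had 691 and 1043 normalised counts with cytokines and 932 and 912 without. Its partner Il6st was at 1092 and 1211 against 1205 and 1162, and the type I BMP receptor Bmpr1a at 1243 and 1379 against 1455 and 1570. Kit, the SCF receptor, ranged more widely between replicates, from 800 to 1746 with cytokines and from 629.6 to 1027 without, so that the groups overlapped. The gene that rose was Hbegf, a membrane-anchored EGFR ligand, at 227.8 and 135 against 61.2 and 70.9 (log2 fold change 1.48, SE 0.32, adjusted p = 0.019, edgeR). That call was lost without the first cytokine replicate (adjusted p = 0.19, edgeR) and without either control replicate (0.16 and 0.13).

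Among the lists of signalling genes, that of LIF and STAT3 targets held the most genes that rose. Of 23 tested genes, 6 rose (Socs3, Klf4, Junb, Bcl3, Pim3 and Ccnd3) and 1 fell (Tubb3), against 2.05% and 2.47% of all genes, and the median log2 fold change was 0.57. Without any 1 library, 3 to 5 of them rose. Socs3, which encodes the feedback inhibitor of LIF signalling (mm10 chr11:117966079-117970336), had 910 and 827.9 normalised counts with cytokines and 58.1 and 106 without them. Both cytokine libraries thus lay far above both controls, and above the 29.8 and 42.9 of TKO EpiLCs. The difference was 10.8-fold (log2 fold change 3.43, SE 0.32, adjusted p = 7.1e-05, edgeR). The promoter of Socs3 is shown because, of the 19 named genes that were searched, 13 had an entry in the RefSeq promoter table (GRCm38.p6) and it alone held the STAT motif TTCNNNGAA, which occurs in 8.3% of all 32851 promoters. Each window ran from 250 bases upstream to 50 bases downstream of the annotated start, both strands were searched, and a match is a description of the letters, not of binding. The motif is in capitals, 154 to 146 bases before the start on the minus strand (chr11:117969502-117969530). The start in the promoter table lies inside the gene span given above, which begins further upstream, so the motif lies within that span.

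Socs3 promoter, STAT motif: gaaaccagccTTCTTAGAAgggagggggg

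Klf4, a factor of naive pluripotency (chr4:55527137-55532475), had 2748 and 1815 normalised counts with cytokines and 461.8 and 569.5 without. Without cytokines it was already well above the 45.6 and 79.2 of TKO EpiLCs, and cytokines raised it a further 4.48-fold (log2 fold change 2.16, SE 0.35, adjusted p = 0.0038, edgeR). Bcl3, an atypical IκB protein (chr7:19808462-19822824), had 525.8 and 567 against 114 and 141.8 (log2 fold change 2.11, SE 0.36, adjusted p = 0.0055, edgeR). Junb, an AP-1 subunit (chr8:84976909-84978748), was at 1069 and 1084 against 233.5 and 278.7 (log2 fold change 2.09, SE 0.27, adjusted p = 0.00089, edgeR). In all 3 genes the groups were clearly separated. Smaller rises were measured for Pim3, a survival kinase, at 2714 and 2792 against 1168 and 1128 (log2 fold change 1.28, SE 0.20), and for the D-type cyclin Ccnd3, at 5576 and 5788 against 3006 and 2756 (log2 fold change 0.996, SE 0.26). Stat3 itself did not pass the test, at 750 and 1018 against 502 and 704 (log2 fold change 0.57, SE 0.27). Socs3 and Junb kept their calls without any single library. By edgeR, the Klf4 call was lost without the first cytokine or the first control replicate (adjusted p = 0.055 and 0.056), that of Bcl3 without either control (0.073 and 0.062), that of Pim3 without the second control (0.063), and that of Ccnd3 without any 1 of the 4 (0.14 to 0.25) and when counts were scaled by library size alone (0.15).

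**Figure D3:**
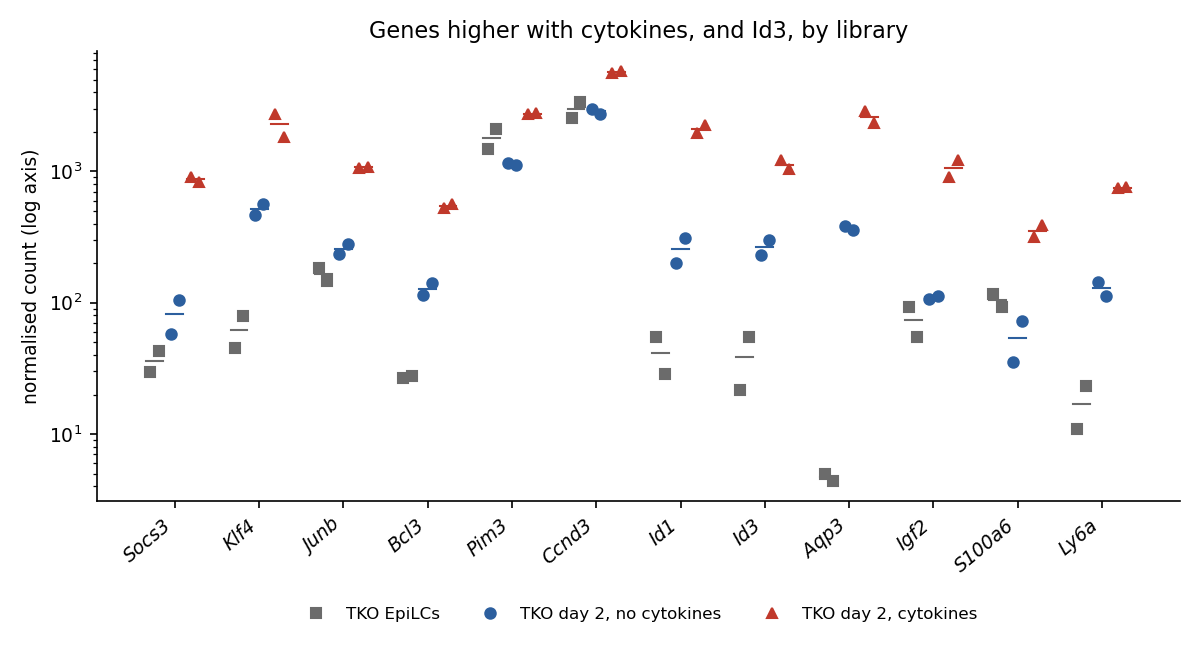
Normalised counts (log axis) of 12 genes are shown in each replicate of TKO EpiLCs (squares) and of day 2 TKO aggregates without (circles) and with cytokines (triangles), with a bar at the mean of the 2 replicates. For Socs3 the replicates with cytokines lie at 910 and 827.9 and all other points at 106 or below, whereas for Pim3 the TKO EpiLCs lie between the aggregate groups.

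Among BMP targets, Id1 rose. Of 26 tested BMP-SMAD genes, 1 (3.85%) rose and 4 (15.4%) fell, against 2.05% and 2.47% of all genes. Those that fell were Grem1, Nog, Fst and Dlx5, and the median log2 fold change was 0.11. A model of only the 4 compared libraries called 7 higher and 4 lower, against 8 and 1 of 22 in the LIF-STAT3 list. That model called many more genes in general, with 1629 higher and 1443 lower among 14625. Id1, an inhibitor of basic helix-loop-helix factors (chr2:152736251-152737410), had 1947 and 2266 normalised counts with cytokines and 199 and 313.6 without. TKO EpiLCs had 54.6 and 28.6, so Id1 was higher in both groups of aggregates than before aggregation and highest with cytokines. The difference was 8.34-fold (log2 fold change 3.06, SE 0.64, adjusted p = 0.016, edgeR), but it did not pass when any 1 library was left out (adjusted p = 0.074 to 0.17, edgeR). Its relative Id3 was at 1221 and 1035 against 232.5 and 301.6 without overlap, but did not reach the threshold (log2 fold change 2.10, SE 0.63, adjusted p = 0.069, edgeR). Id2 was at 321 and 581 against 248 and 336, and the inhibitory SMAD gene Smad7 at 3901 and 3163 against 2522 and 2450, and neither passed.

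The 4 genes of this list that fell include 3 secreted antagonists, which bind BMPs or activins outside the cell. Grem1 was at 0 in both cytokine libraries and at 78.9 and 90.1 normalised counts without cytokines, a level at least 23.7-fold lower with cytokines when a 0 is set to 3 counts per library. Nog fell from 72.7 and 150 to 22.7 and 16.1 (log2 fold change -2.49, SE 0.56, adjusted p = 0.023, edgeR). Fst fell from 404.8 and 917.9 to 200.6 and 32.3 (log2 fold change -2.48, SE 0.61, adjusted p = 0.035, edgeR), with 1 cytokine replicate well above the other. Dlx5, a homeobox gene of craniofacial and limb tissue, had 67.5 and 138 normalised counts without cytokines and 0 and 4.97 with them. Both replicates without cytokines belong to the libraries that hold rod, lens and Hprt transcripts. Grem1 was kept without any library. By edgeR, Nog was lost except without the first control replicate (adjusted p = 0.034; otherwise 0.13 to 0.21), Fst except without the first cytokine replicate (0.017; otherwise 0.050 to 0.25), and Dlx5 without the first cytokine or second control replicate (0.10 and 0.078).

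A GC-rich sequence bound by SMAD1 and SMAD5, GGCGCC, was found in the promoters of 4 of the 13 searched genes (Socs3, Aqp3, Bcl3 and Ccnd3) and in 11.9% of all promoters, in windows that can also hold other GC-rich motifs. Id1, the BMP-SMAD gene that rose, was among the 19 named genes but not among those with the motif. Whether Id1 had a promoter entry is not given here. The motif is shown in capitals for the 3 of the 4 genes that rose beyond a log2 fold change of 2, all on the minus strand of GRCm38.p6, at chr11:117969412-117969437, chr4:41098190-41098215 and chr7:19822785-19822810. The sites lie 61 to 56, 22 to 17 and 45 to 40 bases before the starts in the promoter table, and those of Socs3 and Bcl3 lie inside the gene spans given above.

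Socs3 promoter, GC-rich motif: ggccaaggctGGCGCCgcgcccgccg
Aqp3 promoter, GC-rich motif: gcgtataaagGGCGCCacctgcgctc
Bcl3 promoter, GC-rich motif: gcgggaggcgGGCGCCgccccgactg

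Genes of the ERK pathway lie downstream of EGF and SCF. Of 21 tested feedback and immediate-early genes, 1 rose (4.76%, against 2.05% of all genes) and none fell. The median log2 fold change was 0.54, but 0.26 without the first cytokine replicate. The gene that rose was Ier2, an immediate-early gene, at 2502 and 2608 against 1158 and 1182 (log2 fold change 1.14, SE 0.22, adjusted p = 0.010, edgeR; 0.067 to 0.10 without any 1 library). Spry4, a feedback inhibitor of receptor tyrosine kinases, was at 2518 and 1496 against 952 and 853, and Dusp4, a nuclear MAP kinase phosphatase, at 1014 and 371 against 264.6 and 280. Neither passed (adjusted p = 0.087 and 0.089, edgeR), and for both the first cytokine replicate was well above the second. Among 12 FGF ligands and receptors, Fgfr2 fell (log2 fold change -1.31, SE 0.28, adjusted p = 0.017, edgeR, but 0.094 to 0.11 without any 1 library).

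Several of the genes that rose most belong to none of the signalling lists. Aqp3, which encodes a water and glycerol channel (chr4:41092724-41098183), had 2875 and 2341 normalised counts with cytokines, 387 and 358 without, and 4.96 and 4.4 in TKO EpiLCs. It was therefore high in aggregates of either kind and 7.07-fold higher again with cytokines (log2 fold change 2.82, SE 0.25, adjusted p = 3.3e-05, edgeR). Ly6a, the Sca-1 surface antigen (chr15:74994877-74998031), followed the same order, with 744.5 and 759.6 with cytokines, 144 and 113 without, and 10.9 and 23.1 in TKO EpiLCs. S100a6, a calcium-binding protein (chr3:90612894-90614414), had 316 and 389.7 with cytokines and 35.3 and 72.1 without, but TKO EpiLCs lay between, at 116 and 92.4. Tinagl1, a basement membrane glycoprotein (chr4:130165600-130175122), was at 325 and 407 against 65.4 and 62.5 (log2 fold change 2.53, SE 0.27, adjusted p = 0.00019, edgeR). Aqp3, Ly6a, S100a6 and Tinagl1 kept their calls without any single library.

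Igf2, an imprinted growth factor gene (chr7:142650768-142666816), had 911 and 1230 normalised counts with cytokines and 107 and 113 without (9.85-fold, log2 fold change 3.30, SE 0.79, adjusted p = 0.031, edgeR). TKO EpiLCs had 92.3 and 55.0, close to the level without cytokines, and the call was lost without any 1 library (adjusted p = 0.10 to 0.21, edgeR). Anxa1, a phospholipid-binding annexin, was at 269.7 and 259 against 32.2 and 70.9, and the simple-epithelium keratin Krt19 at 835 and 594.6 against 143 and 264. By edgeR, the Anxa1 call was lost without the first cytokine or first control replicate (adjusted p = 0.061 and 0.099), and that of Krt19 without the first cytokine replicate (0.054). Pramel6, a gene of the preimplantation embryo and naive cells, was at 0 in both TKO EpiLC libraries, at 14.5 and 33.6 normalised counts without cytokines and at 119 and 90.6 with them (log2 fold change 2.15, SE 0.42, adjusted p = 0.016, edgeR), a call kept only without the second control replicate (0.042; otherwise 0.055 to 0.16). Of the 26 genes higher beyond the limit, 25 (96.2%) had both cytokine libraries above both TKO EpiLC libraries, against 27.3% of all genes. These genes were chosen for high values in the same cytokine libraries, which favours that share, so all genes are not a like baseline.

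Of 21 tested genes of naive pluripotency, only Klf4 rose (4.76%, against 2.05% of all genes) and none fell. In this list 20 of 21 had a log2 fold change above 0, and the median was 0.36. Pou5f1, which encodes OCT4, was at 20930 and 18340 against 9806 and 10800 (log2 fold change 0.95, SE 0.42, adjusted p = 0.19, edgeR). Tfcp2l1 was at 5902 and 6201 against 3212 and 3394, Tbx3 at 4953 and 3650 against 2081 and 1924, and neither passed. Nanog overlapped between the groups, at 6090 and 7564 against 6585 and 5398, as did Esrrb and Sox2. When counts were scaled by library size alone, which lowered the median of all genes to -0.48, the median of the naive list was -0.09, hence above all genes but below 0.

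Of 21 genes of formative and primed pluripotency, none rose and 4 fell (Pou3f1, Sall2, Lef1 and Sfrp2), with a median of -0.44. Pou3f1, a POU factor of the epiblast, was at 235 and 117 with cytokines, 340 and 575.5 without, and 2953 and 2188 in TKO EpiLCs. It was thus lower in both kinds of aggregate than in EpiLCs, and lowest with cytokines (log2 fold change -1.36, SE 0.30, adjusted p = 0.019, edgeR). Sfrp2, a secreted WNT modulator, fell from 1226 and 1441 to 496 and 541 (log2 fold change -1.34, SE 0.24, adjusted p = 0.0081, edgeR). Fgf5, a classic epiblast marker, was at 308 and 65.8 against 601 and 576.7 and did not pass (adjusted p = 0.064, edgeR). By edgeR, Sall2 and Lef1 were lost without any 1 library (adjusted p = 0.10 to 0.25), Sall2 also with length offsets (0.056), Pou3f1 without either second replicate (0.13 with cytokines and 0.22 without), and Sfrp2 except without the first control replicate (0.028; otherwise 0.060 to 0.10).

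The germ cell specification list gave no call. Among its 19 genes, none passed the adjusted threshold by edgeR, 2 had an unadjusted p below 0.05, DESeq2 called 1, and the median log2 fold change was 0.07. Among all 16582 genes DESeq2 called 764 higher and 728 lower, and the share at that unadjusted p is not given here. Prdm1, which encodes BLIMP1 and represses the somatic programme, was at 361.5 and 275.6 normalised counts with cytokines and 611 and 381 without (log2 fold change -0.63, SE 0.33). Prdm14 was at 817 and 962 against 788 and 740.1 (0.24, SE 0.33), and Tfap2c at 2007 and 2230 against 1789 and 1544 (0.36, SE 0.22). All 3 factors were therefore transcribed with and without cytokines. Dppa3, a marker of established germ cells and naive cells, was at 197 and 136.5 against 105 and 58.9 (1.04, SE 0.40, adjusted p = 0.14, edgeR), and Nanos3 at 88.4 and 65.8 against 55.0 and 45.7. 

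Among 39 later germline genes, 1 rose (2.56%, against 2.05% of all genes) and none fell. It was Tuba3a, a testis tubulin, at 1628 and 2749 against 1045 and 826.6 (log2 fold change 1.24, SE 0.26, adjusted p = 0.017, edgeR), a call lost without the second cytokine replicate (0.14) or either control (0.071 and 0.19), and with scaling by library size alone (0.057). Ddx4, which encodes the VASA helicase, was at 460 and 520 against 437 and 484, and Dazl at 55.5 and 186 against 157 and 147.

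Genes of the primitive streak differed between the cytokine replicates. T, which encodes Brachyury, had 999.5 normalised counts in the first and 77.0 in the second, against 76.8 and 148 without cytokines, so 1 library alone was high (2.28, SE 0.84, adjusted p = 0.12, edgeR). The caudal homeobox genes were also higher in the first cytokine replicate, with Cdx2 at 169 and 41.0 against 24.9 and 31.2 and Cdx1 at 177 and 74.5 against 18.7 and 26.4. Of 33 tested primitive streak and mesoderm genes, none rose and 1 fell (3.03%, against 2.47% of all genes). Of 22 endoderm genes none passed by edgeR (5 at an unadjusted p below 0.05, 4 by DESeq2). The DESeq2 calls over all genes are given above with the germ cell list. The mesoderm gene that fell was Foxc1, a forkhead factor of paraxial mesoderm, from 86.1 and 142 to 9.07 and 6.21 (log2 fold change -3.85, SE 0.57, adjusted p = 0.0022, edgeR). It lay at 86.14 to 193.8 in the 4 cytokine-free TKO libraries, which hold rod, lens and Hprt transcripts, and at 45.35 or below in the other 14.

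**Figure D4:**
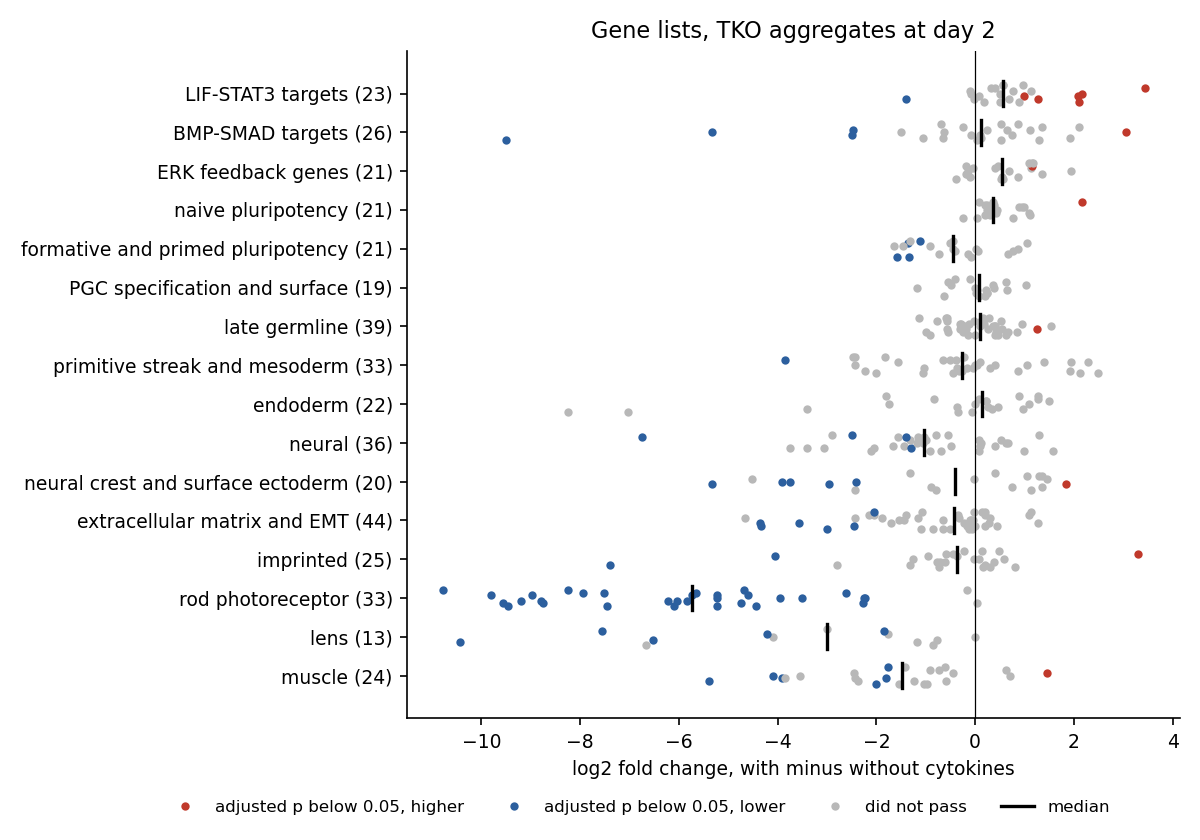
Each point is the log2 fold change of 1 tested gene at day 2 in 1 of 16 gene lists, coloured where its adjusted p is below 0.05, and the black bar is the list's median. Medians run from 0.57 for LIF-STAT3 targets to -5.72 for rod photoreceptor genes, and the germ cell specification list holds no coloured point.

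Rod photoreceptor genes were the lowest group with cytokines. Of 33 tested, 31 fell (93.9%, against 2.47% of all genes), all beyond a log2 fold change of -2. The median was -5.72, or -4.41 when the 18 genes at or below 3 counts in each cytokine library were set to that floor. Without 1 of the 4 libraries, 11 to 25 rod genes fell. All 33 were detected in both libraries without cytokines, and 8 were at 0 in both with them. Gnat1, the rod transducin alpha subunit (chr9:107674437-107679634), had 539 and 1059 normalised counts without cytokines and 2.27 and 6.21 with them (log2 fold change -7.53, SE 0.58, adjusted p = 9.5e-06, edgeR). Rp1, a photoreceptor axoneme protein, was at 139 and 273.9 against 0 and 0, at least 58.0-fold lower with cytokines. The rod transcription factors were present as well, with Nrl at 61.2 and 117 against 0 and 0 (at least 25-fold lower) and Crx at 46.7 and 98.5 against 0 and 3.72. The 2 members that did not fall were Guca1a and Prom1. In the second library without cytokines the median rod gene was higher than in the first by 0.87 on the log2 scale, and over the 236 lower genes by 0.71, against 0.01 over all genes.

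Other tissues were represented among the genes that fell, less fully. Against 2.47% of all genes, 38.5% of lens genes, 25% of muscle, fibroblast and liver genes, 14.3% of cone genes and 11.1% of glial genes fell. Of the muscle genes 4.17% rose, against 2.05% of all genes. Of 13 tested lens genes 5 fell, among them the crystallin gene Crybb2 (chr5:113058258-113070117), at 90.3 and 231.9 without cytokines and 0 in both with them, at least 45.2-fold lower with cytokines. Crybb2 was at 0 in all 14 libraries other than the cytokine-free TKO libraries, and its call was lost without the first cytokine replicate (adjusted p = 0.051, edgeR) and by DESeq2 (0.35). Of 24 muscle genes 6 fell and 1 rose: Actc1, cardiac alpha-actin, fell from 360.1 and 820.6 to 9.07 and 18.6 (log2 fold change -5.40, SE 0.72, adjusted p = 0.0011, edgeR), whereas the myosin light chain gene Mylpf rose (log2 fold change 1.46, SE 0.34, adjusted p = 0.026, edgeR; 0.10 to 0.19 without any 1 library and 0.055 with length offsets). Actc1 differs from the eye genes in that wild-type aggregates without cytokines also held it, at 710.6 and 1120 normalised counts on day 2. Of 8 fibroblast genes 2 fell (Col1a1 and Dcn), of 7 cone genes 1 fell, of 9 glial genes 1, of 4 liver genes 1, with the liver marker Alb at 0, and of 2 red blood cell genes none.

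Of the 236 genes lower beyond the limit, 114 had at most 3 counts in each cytokine library, which sets a floor to their fold change. All 4 cytokine-free TKO libraries lay above all 14 other libraries for 103 of them (43.6%), against 1.72% of all genes. For 160 (67.8%, against 39.0% of all genes) both TKO libraries without cytokines exceeded both wild-type libraries without cytokines at day 2. The 236 genes were chosen as higher in the day 2 TKO libraries without cytokines than in those with them. Both shares are favoured by that choice, so all genes are not a like baseline. With the lists of other tissues left out, 189 lower genes remained.

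Genes of extracellular matrix and of epithelial-mesenchymal transition fell in part. Of 44 tested, none rose and 6 (13.6%) fell, against 2.47% of all genes. These were Col1a1, Tnc, Col5a2, Fbn2, Zeb2 and Vim, and the median of the list was -0.43. Col1a1, the fibrillar collagen of fibroblasts and bone (chr11:94936224-94953042), fell from 1087 and 1928 to 75.9 and 69.5 normalised counts (log2 fold change -4.35, SE 0.63, adjusted p = 0.0018, edgeR). Col5a2 fell from 227 and 462.6 to 27.2 and 29.8 (log2 fold change -3.57, SE 0.45, adjusted p = 0.00084, edgeR). Zeb2, a repressor of E-cadherin, fell from 204.5 and 288 to 53.3 and 34.8 (log2 fold change -2.46, SE 0.35, adjusted p = 0.0017, edgeR). The intermediate filament gene Vim fell from 2167 and 3968 to 922.5 and 533.7, and Tnc, an adhesion-modulating matrix glycoprotein, from 164 and 304 to 11.3 and 11.2. A fibroblast list summed to 1420 to 3038 in the 4 cytokine-free TKO libraries and 150 to 1285 in the other 14, and its part in these values was not tested. Col1a1, Col5a2 and Zeb2 were kept without any library. By edgeR, Vim and Tnc remained only without the first control replicate (adjusted p = 0.016 and 0.022; otherwise 0.060 to 0.15), and Fbn2 was lost in each case (0.056 to 0.18).

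Ectodermal lists held genes that moved in both directions. Of 20 neural crest and surface ectoderm genes, 5 (25%) fell and 1 (5%) rose, against 2.47% and 2.05% of all genes. Those that fell were Tfap2a, Sox9, Dlx5, Dlx6 and Krt5, and Krt19 rose. Of the 20, 11 had a log2 fold change below 0. The median was -0.41, but 0.16 among genes with a mean CPM of at least 1. Tfap2a, an AP-2 factor of surface ectoderm and neural crest (chr13:40713802-40738238), fell from 324.8 and 544 to 75.9 and 84.4 (log2 fold change -2.42, SE 0.33, adjusted p = 0.0013, edgeR), and was kept without any library. Wild-type aggregates without cytokines at day 6 held 317 and 418. Krt5, a basal keratin, fell from 48.8 and 67.3 to 4.53 and 3.72. Of 36 neural genes, 4 (11.1%) fell, namely Lhx2, Neurod4, Tubb3 and Map2, and none rose. The median was -1.04, or -0.84 with genes at the floor set to their bound. Tubb3, neuronal beta-tubulin, fell from 1081 and 1497 to 423.8 and 539 (log2 fold change -1.40, SE 0.33, adjusted p = 0.029, edgeR). By edgeR, the calls of Lhx2, Tubb3, Map2, Sox9 and Dlx6 were lost without any 1 library (adjusted p = 0.067 to 0.27), and those of Neurod4 and Krt5 except without the first control replicate (0.024 and 0.045; otherwise 0.092 to 0.17).

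Smaller groups of developmental genes moved as follows, where 2.05% of all genes rose and 2.47% fell. The shares that fell were 8.70% of Notch and Hedgehog genes, 13.3% of WNT targets and 5.88% of retinoic acid genes. Of imprinted genes 4% rose and 8% fell, and of cell cycle genes 10% rose and 5% fell. Among the Notch and Hedgehog genes, Gli2, a transcription factor of the Hedgehog pathway, fell from 897.7 and 839.8 to 229 and 275.6 (log2 fold change -1.77, SE 0.31, adjusted p = 0.0074, edgeR). Among 15 WNT targets Lef1 and Ccnd1 fell, and among 17 retinoic acid genes the vitamin A transporter gene Stra6. Of 25 imprinted genes, Igf2 rose, whereas Mest fell from 163 and 259.5 to 14.7 and 9.93 (log2 fold change -4.05, SE 0.71, adjusted p = 0.0066, edgeR) and Dcn fell to 0 in both cytokine libraries, at least 5.54-fold lower with cytokines. In the cell cycle list of 20, Ccnd3 and Pcna rose and Ccnd1 fell. Pcna, the replication clamp, was at 4193 and 3709 against 2104 and 2133 (log2 fold change 0.92, SE 0.24, adjusted p = 0.044, edgeR). By edgeR, the calls of Stra6, Dcn and Pcna were lost without any 1 library (adjusted p = 0.054 to 0.23), that of Pcna also with library size alone (0.17) or length offsets (0.055), those of Ccnd1 and Mest except without the first control replicate (0.023 and 0.014; otherwise 0.060 to 0.27), and that of Gli2 without either cytokine replicate (0.10 and 0.052). The 23 tested Hox genes gave no call, none of them at an unadjusted p below 0.05 and none by DESeq2.

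Among the sex-linked genes, Xist fell by 2.63 on the log2 scale (SE 0.34, adjusted p = 0.00089, edgeR; chrX:103460373-103483233) and the Y-linked helicase gene Ddx3y by 2.50 (SE 0.47, adjusted p = 0.0092, edgeR), from 59.2 and 112 to 17.0 and 12.4 normalised counts. Eif2s3y, Uty and Kdm5d did not pass. Thus the transcript of the inactive X chromosome and a Y-linked transcript fell together. Hprt fell as well (adjusted p = 0.0042, edgeR), a call lost without the first cytokine replicate (0.083), and Ddx3y kept its call only without the first control replicate (0.010; otherwise 0.085 to 0.11).

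Transcript length moved with the fold change across all genes. The median log2 fold change was 0.38 for transcripts of over 500 to 1000 bases, 0.23 for over 1000 to 2000, -0.17 for over 4000 to 8000 and -0.46 over 8000 bases. Accordingly 6.68% of genes of over 500 to 1000 bases rose and 0.654% fell, whereas over 8000 bases 0.218% rose and 6.75% fell. Short, abundant classes lay on the upper side, where 2.05% of all genes rose and 2.47% fell. Of 57 histone cluster genes 13 (22.8%) rose and 1 fell (median 0.78). Of 72 oxidative phosphorylation genes 16 (22.2%) rose and none fell (median 0.74). Of 80 cytosolic ribosomal protein genes 4 (5%) rose and none fell (median 0.56). Among the 26 genes higher beyond the limit, Hist1h4m, H4c9 and H4c14 are histone H4 copies of near-identical sequence, so their separate counts are uncertain. With offsets for transcript length, an alternative added after the data were seen, 17 genes were higher and 232 lower, the histone calls were 11 and 2 (median 0.46), those of oxidative phosphorylation 8 and 1 (0.40) and those of ribosomal proteins 3 and 2 (0.27). Without any 1 library, no oxidative phosphorylation or ribosomal protein gene was called. With the length offsets 7 LIF-STAT3 targets were higher and 1 lower, and 30 rod genes were lower.

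**Figure D5:**
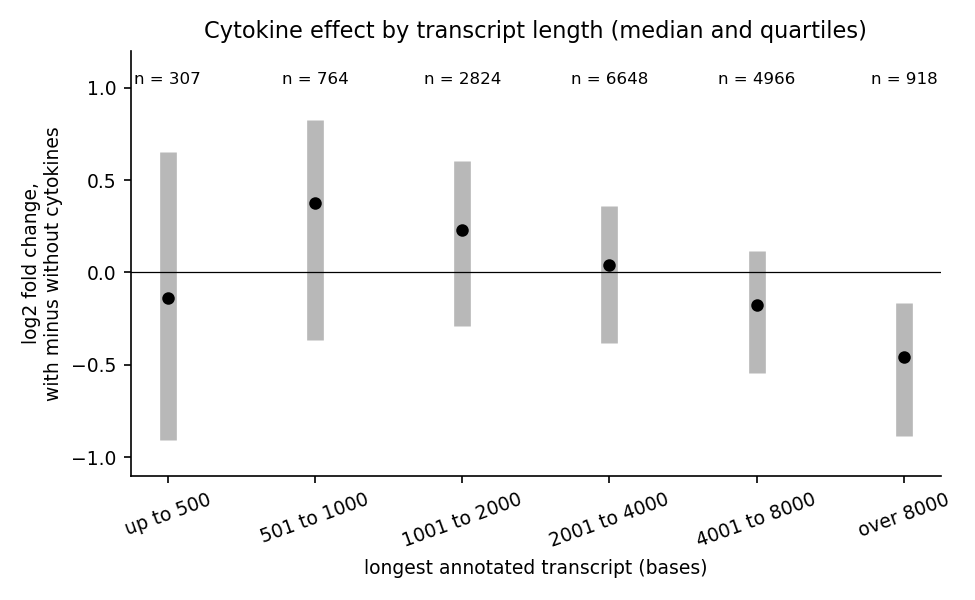
Points give the median, and bars the quartiles, of the log2 fold change of all tested genes in 6 bins of transcript length. The median falls from 0.38 at over 500 to 1000 bases to -0.46 above 8000 bases, while the shortest bin lies at -0.14.

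The same contrast at day 6, which shares no library with day 2, gave 425 genes higher (2.56%) and 506 lower (3.05%) without a limit on the fold change. Of the 340 genes that rose at day 2, 130 (38.2%, or 30.6% of the day 6 genes) rose at day 6, and of the 409 that fell, 235 (57.5%, or 46.4%) fell at day 6. The sign was the same at day 6 for 333 of the 340 and 395 of the 409, and for 72.4% of all genes. The libraries without cytokines at both days hold the rod, lens and Hprt transcripts, whose part in this was not tested. Socs3 (log2 fold change 3.43 and 3.77 at days 2 and 6), Aqp3 (2.82 and 2.87), Klf4 (2.16 and 2.46), Bcl3 (2.11 and 2.84) and Id1 (3.06 and 2.76) passed at both days. Igf2 was at 3.30 on day 2 and 1.27 on day 6, where it did not pass (adjusted p = 0.30, edgeR). Rod genes fell at both days, with log2 fold changes of Gnat1 of -7.53 and -8.25. Tested directly, no gene had a day 6 effect that differed from its day 2 effect by edgeR, where 717 genes (4.32%) had an unadjusted p below 0.05, and DESeq2 called 3, namely Lix1l, Nelfa and Tmppe. A gene that passed at 1 day only is therefore not shown to respond differently at the other.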

How the data were processed

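Total RNA was depleted of ribosomal RNA and sequenced as directional libraries. Per the study's methods, the authors trimmed reads (Trim Galore 0.5.0, cutadapt 1.16), aligned them to mm10 with STAR 2.7.1a, counted them with Subread 1.5.2 and tested genes with DESeq2. The deposited table holds raw counts for 25239 genes in 18 libraries. Its header holds 33 featureCounts commands over exons of a RefSeq annotation, none with a strand option, so overlapping antisense genes cannot be told apart, and none with an option to count multi-mapping reads, so near-identical genes can lose reads. Among these, 2 commands are for TKO libraries at day 2, whereas the table holds 4 such libraries, and the names do not give the treatment. Whether counting or sequencing differed between the treatments cannot be told apart from the cytokines.

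Counts of all 18 libraries (9 groups of 2) were fitted with edgeR 4.0.16 (limma 3.58.1, R 4.3.3): filterByExpr by group, which left 8657 genes untested, TMM, and glmQLFTest of the groups with minus without cytokines. Sharing the spread over all groups gave a biological coefficient of variation of 0.222. The thresholds were an adjusted p of 0.05 and a log2 fold change of 2. SE was approximated as the size of the log2 fold change over the root of F. Normalised counts used DESeq2 1.42.0 size factors. A 0 was bounded at 3 counts per library, which covers counting error only. Replicates differed beyond counting noise (chi-square per degree of freedom 11.9 without and 24.0 with cytokines), so each was counted as a sample. Scripts were tested on simulated counts.

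Named genes were the 15 highest and 15 lowest log2 fold changes among called genes with a mean normalised count of at least 50 and no overlap between groups, without clone names, and list members that passed or define their list. The comparison and the lists were chosen with earlier results of these data known. The lists of eye, muscle, fibroblast, liver, glial, blood and sex-linked genes, Hprt, and the histone, oxidative phosphorylation, ribosomal protein and small nucleolar RNA lists were added after values were seen. Transcript lengths came from the reference annotation (99.1% of tested genes matched) and promoters from RefSeq. Alternatives covered the test, filter, scaling, model, thresholds and libraries. Some genes are not reported here.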

Additional observations from a re-analysis of the deposited data

How the results depend on the processing

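Against 26 genes higher and 236 lower, RLE factors gave 25 and 239, and a mean CPM of at least 1 gave 23 and 175. DESeq2 gave 36 and 303, no filter on low counts 41 and 348, and a model of only the 4 compared libraries 43 and 377. Library size alone gave 15 and 624 and moved the median of all genes to -0.48; without a limit on the fold change it called 100 genes higher and 2665 lower, against 340 and 409. Library size after Rn45s was left out gave 18 and 303, with a median of -0.20 and 167 and 641 genes without the limit. A log2 fold change beyond 1 gave 191 and 366, no limit 340 and 409, and a threshold of 0.01 for the adjusted p left 13 and 85. Of the alternatives added after the data were seen, transcript length offsets gave 17 and 232, and leaving out the lists of other tissues 26 and 189. Leaving out 1 library gave 9 to 17 and 41 to 128. The counts were 13 and 41 without the first cytokine replicate and 17 and 73 without the second. They were 9 and 128 without the first control and 13 and 51 without the second. Each of these fits leaves 1 library in a group, and the cause of the lower counts was not tested. The difference between day 6 and day 2 had 0 genes in the fit above and when any 1 of the 8 TKO aggregate libraries was left out, 3 by DESeq2, 5 with no filter, and 4 in a model of only the compared libraries. None of the 107 named genes changed direction, and 26 kept their call in every alternative. List medians near 0 changed sign, among them those of the BMP-SMAD (-0.34 to 0.23), naive (-0.09 to 0.44) and germ cell specification (-0.37 to 0.23) lists with library size alone and that of the later germline list (-0.34 to 0.30) also without the second cytokine replicate. The cause of these shifts was not tested.

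Replicate numbers are shared between the groups, but only 2 pairs exist and the labels name no shared batch. The replicate difference correlated with r = 0.0103 between the groups across 16582 genes, so the numbers were not taken as pairs. With the replicate block, 25 genes were higher, 227 lower and 0 differed between days, and in a model of only the compared libraries with the replicate block 41, 387 and 6. Depth limits genes at a normalised count under 3.72, where a 0 cannot be told from low expression.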

Other observations

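In 11 of the 30 lists drawn up for this comparison, with earlier results of these data known, no gene passed the adjusted threshold by edgeR. These lists hold 188 tested genes, of which 28 had an unadjusted p below 0.05. The share of all genes below that value is not given here, so this count and those below show no enrichment. DESeq2 called 764 higher and 728 lower among all 16582 genes. The genes named here were chosen after their values were seen. The list of ATF4 and amino acid stress genes had 7 of its 20 genes at an unadjusted p below 0.05 and 2 called by DESeq2. Its median log2 fold change of 0.54 was 0.95 without the first cytokine replicate and 0.05 without the second. Trib3, a pseudokinase gene induced by ATF4, was at 451 and 1075 normalised counts with cytokines and 220.0 and 301.6 without (log2 fold change 1.57, SE 0.44, adjusted p = 0.054, edgeR), and Phgdh, the first enzyme of serine synthesis, at 1715 and 2527 against 975.6 and 1099. Of 19 p53 targets, 4 had an unadjusted p below 0.05. Bax, an effector of apoptosis, was at 3715 and 3614 against 1874 and 2149 (log2 fold change 0.88, SE 0.28, adjusted p = 0.076, edgeR).

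Among 13 Nodal targets, 3 had an unadjusted p below 0.05, among them the T-box gene Eomes at 215 and 212 against 456.6 and 432.5 (log2 fold change -1.04, SE 0.32, adjusted p = 0.073, edgeR). In the cholesterol synthesis list of 20 genes, 2 had an unadjusted p below 0.05 and DESeq2 called 2, and the hypoxia and glycolysis, interferon-stimulated and early-embryo (2-cell-like) lists had 1 each and no DESeq2 call. Of the 97 tested small nucleolar and Cajal body RNAs, 2 (2.06%) rose and 1 (1.03%) fell, against 2.05% and 2.47% of all genes. Their median was -0.30, but 0.13 without the first cytokine replicate and -0.96 without the second. Scarna2 alone rose beyond a log2 fold change of 2, at 5404 and 3523 against 888 and 885.5 (log2 fold change 2.35, SE 0.34, adjusted p = 0.0018, edgeR), and its call was kept without any single library.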
